A study of Mus musculus with 141 samples.

Results

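The UDP-glucuronosyltransferase (*Ugt*) and cytosolic sulfotransferase (*Sult*) genes were examined in liver, lung and kidney. All gene symbols that begin with *Ugt* and a digit from 1 to 8, or with *Sult* and a digit from 1 to 6, were taken, which gave 42 of the 24423 genes in the files, 21 *Ugt* and 21 *Sult*. The samples came from the Collaborative Cross, a set of recombinant inbred mouse strains. A single male of each of 47 strains gave an RNA-seq library of every tissue, so that the 3 groups held 47 libraries each. All mice were 8 to 12 weeks old, were fed NTP 2000 chow and spent 6 hours a day, Monday to Friday, over a 2-week period in chambers with clean air, so that no group differed in treatment. With 1 mouse per strain, a difference between strains and a difference between single mice cannot be told apart.

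Both families attach a charged group to small molecules so that these can be excreted in bile or urine. UGT enzymes lie in the endoplasmic reticulum and transfer a sugar, in most cases glucuronic acid from UDP-glucuronic acid, to bilirubin, steroids, bile acids and drugs. SULT enzymes lie in the cytosol and transfer sulfate from the donor PAPS to phenols, catecholamines, estrogens and hydroxysteroids. Each *Ugt1a* gene has a first exon of its own that is spliced to the same set of later exons, whereas each *Ugt2b* gene is a complete copy within a cluster.

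Libraries held from 1738046 to 42158454 counts (median 9043226), and 3 counts, taken as the smallest number that a library resolves, equalled a median of 0.332 CPM (counts scaled to library size). Such floors cover counting error only. Each library showed the markers of its labelled tissue. The summed CPM of 6 hepatocyte genes was at least 62576 in each liver library, that of 4 alveolar type 2 genes at least 3315 in each lung library, and that of 5 proximal tubule genes at least 12503 in each kidney library. In 6 libraries the summed CPM of a list of other cells was over 300 and at least 9 times the median of the tissue. These were hepatocyte genes in the lung of CC010 (681, median 75.5), upper airway genes in the lung of CC049 (1754, median 107), and in liver adrenal cortex genes in CC006 (2641, median 5.16), pancreas genes in CC068 (1202, median 41.7), proximal tubule genes in CC035 (1053, median 46) and macrophage genes in CC016 (319, median 29). Some results, among them the counts of members called between tissues, are given with and without these 6 strains and CC033. The CC033 liver was added because its TPM scale stood apart (next paragraph). Ranges include all of these libraries unless stated otherwise.

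The authors counted only reads that aligned to 1 place, and the members differed in how much of their transcript is shared with other genes. Of 40 members with a transcript in the GENCODE vM1 annotation of NCBIM37, 19 had at least 95% unique 50-base windows. A window was unique if no protein-coding transcript of another gene held it, and the genome itself was not searched. In the *Ugt1a* genes, the share was 7.81% in *Ugt1a6b*, 13.4% in *Ugt1a6a*, 28.2% in *Ugt1a7c* and between 36% and 41.8% in the other 5. It was 81.7% in *Ugt2b37*, 62.6% in *Ugt2b38* and 58.9% in *Ugt2b5*. A pair of genes, the ribosomal RNA precursor *Rn45s* and *Lars2*, held 0.113% to 76.5% of all TPM in liver libraries (median 20.7%), 0.428% to 81.7% in lung and 0.085% to 65.4% in kidney, so that TPM levels of all other genes had less of the total where this share was high. It was highest in the liver of CC033, the lung of CC015 and the kidney of CC027. In TPM, these libraries were lowest in 8 of 24, 4 of 11 and 4 of 20 members with a median of at least 10 counts. Among these were *Sult5a1* in lung and *Sult1d1*, *Sult1c2* and *Ugt8a* in kidney, so their lowest TPM values depend on this share. The tests below use TMM-scaled values. TPM values divide counts by the whole transcript length, so levels of *Ugt1a* genes compared with other genes are less certain than comparisons of 1 gene between libraries.

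Of the 42 members, 28 had a median over 3 counts in at least 1 tissue and 16 in all 3, while 14 did not pass that level in any tissue and 7 of these never exceeded 10 counts in a library. The summed median TPM (a level per length, scaled to library size) of the members was 4751 in liver, against 3900 in kidney and 189.6 in lung. The median share of counts that fell on members was 0.454% in liver libraries, 0.350% in kidney libraries and 0.0134% in lung libraries. The 2 organs of excretion thus held most of the transcripts of both families. Their members of highest median level differed, but some members were high in both. *Ugt3a2* had medians of 258 TPM in liver and 931 TPM in kidney, and *Sult1d1* 112 and 755 TPM.

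In liver, the 5 members of highest median level were 3 *Ugt2b* genes, *Sult1a1* and *Ugt2b34*. *Ugt2b1*, of the family that conjugates steroids and many drugs, ranged over the liver libraries from 104 to 1561 TPM with a median of 904 TPM. *Ugt2b36* ranged from 165 to 1353 TPM (median 895), *Ugt2b5* from 195 to 1456 TPM (median 802) and *Ugt2b34* from 102 to 597 TPM (median 345). The lowest values of these 3 came from the CC033 liver, which was lowest in 8 of 24 members in TPM and in 1 of 24 in TMM-scaled CPM. Without it, the lowest were 398, 240 and 186 TPM. The highest value of *Ugt2b36* was 8.22 times the lowest in TPM but 2.80 times in TMM-scaled CPM. *Sult1a1*, the main phenol sulfotransferase, ranged from 115 to 1023 TPM (median 467). The interquartile ranges of the first 3 overlapped, so their order within liver is not resolved beyond the spread over strains. *Ugt1a1*, which conjugates bilirubin, had a median of 85.2 TPM in liver and ranged from 33.3 to 352 TPM.

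In kidney, the order was headed by *Ugt2b38*, *Ugt3a2* and *Sult1d1*, a sulfotransferase of catecholamines. *Ugt2b38* had a median of 947 TPM and ranged from 0.50 to 3467 TPM. *Ugt3a2*, a member of the UGT3 family whose enzymes use other UDP-sugars than UDP-glucuronic acid, ranged from 203 to 2187 TPM (median 931). *Sult1d1* ranged from 266 to 1461 TPM (median 755), *Ugt2b37* from 3.27 to 1423 TPM (median 392) and *Ugt3a1* from 128 to 593 TPM (median 330). The ranges of these 5 overlapped, and those of *Ugt2b38* and *Ugt2b37* were the only ones among them to reach below 100 TPM.

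Lung had the lowest summed level, although *Sult1a1*, *Sult5a1* and *Sult2b1* were higher there than in kidney (tests below). *Sult1a1* had the highest median, at 103 TPM (37.1 to 223), followed by *Sult1d1* at 22.9 TPM (0.18 to 136, and at most 73.9 without the CC049 lung) and *Sult5a1*, a sulfotransferase with no well known substrate, at 17.8 TPM (3.25 to 32.3). *Ugt1a6a* and *Ugt1a6b*, which conjugate planar phenols, had medians of 12.8 TPM (0.28 to 27.8) and 7.55 TPM (0.39 to 22.1). The CC049 lung, highest in *Sult1d1*, also had the highest level of the upper airway gene *Bpifa1* (7071 TPM, at most 2602 TPM in the others), and the part of such RNA in the *Sult1d1* value was not tested. No *Ugt2* or *Ugt3* gene was among the 5 highest members in lung.

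**Figure D1:**
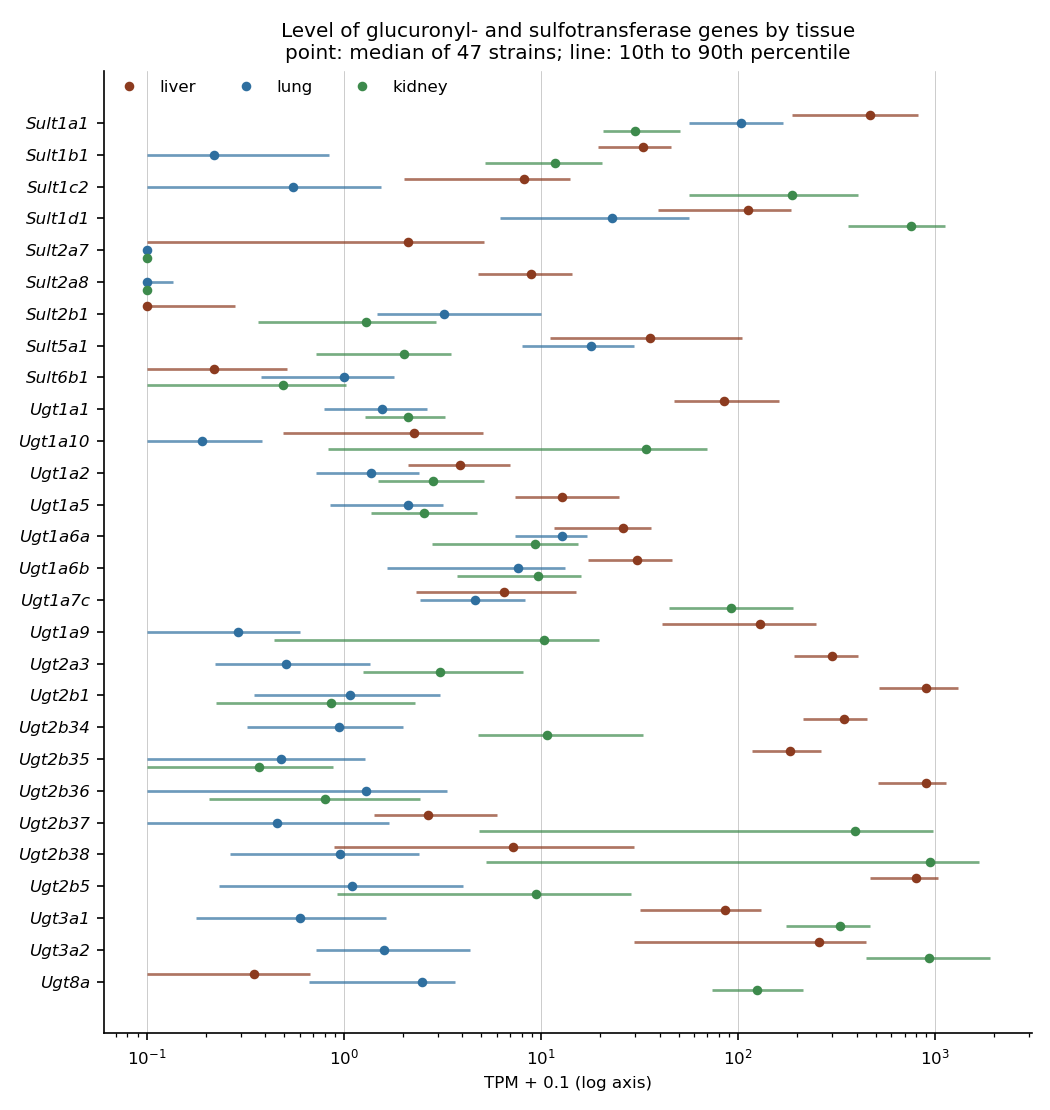
Level of the 28 members with a median over 3 counts in at least 1 tissue, by tissue, in TPM + 0.1 on a log axis. Points are medians of 47 strains and lines span the 10th to the 90th percentile. *Ugt2b1*, *Ugt2b36* and *Ugt2b5* lie highest in liver (medians 904, 895 and 802 TPM), and *Ugt2b38* and *Ugt3a2* in kidney (947 and 931 TPM).

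For the comparison of tissues, limma-voom was fitted to 12127 genes that passed a filter on low counts, with strain as a block. A gene was called at an adjusted p (q, Benjamini-Hochberg over all genes) of at most 0.1 and a log2 fold change of 1 or more in either direction. Of the members, 26 passed the filter (19 *Ugt*, 7 *Sult*). The other 16 were *Sult1c1*, *Sult1e1*, *Sult2a1* to *Sult2a7*, *Sult3a1*, *Sult3a2*, *Sult4a1*, *Sult6b1*, *Sult6b2*, *Ugt2a1* and *Ugt2a2*, and they have no test between tissues. Since a member could pass the filter through 1 tissue of high level, the counts below describe the tested members and not the family. In bulk tissue, fewer cells of a type and less RNA per cell cannot be told apart.

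Between liver and lung, 24 of the 26 tested members were higher in liver and 2 in lung, against 23.9% and 31% of all tested genes (55% in either direction). The median log2 fold change of the members was 5.41 (all genes -0.06). In liver, *Ugt2b1* spanned 104 to 1561 TPM, and in lung 0 to 50.7 TPM (median 0.98). The groups did not overlap, and its log2 fold change was 11.06 (SE 0.14, q = 1.70e-87, limma). *Ugt2b36* (10.87, SE 0.14, q = 5.10e-87), *Ugt2b5* (10.71, SE 0.20, q = 6.26e-72) and *Ugt2a3*, whose human form glucuronidates bile acids (10.48, SE 0.15, q = 2.77e-84), followed. These 4 were higher in liver in 47 of 47 strains.

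The 2 members higher in lung were *Sult2b1*, a sulfotransferase of cholesterol and other sterols, and *Ugt8a*, which makes galactosylceramide in place of a glucuronide. *Sult2b1* spanned 0.42 to 15.6 TPM in lung (median 3.14) and 0 to 2.03 TPM in liver (median 0), with a log2 fold change of -3.04 for liver minus lung (SE 0.21, q = 2.00e-25). Lung was the higher tissue in 47 of 47 strains, although the 2 ranges overlapped. *Ugt8a* spanned 0.15 to 4.54 TPM in lung (median 2.41) and 0 to 2.17 TPM in liver (median 0.25, at most 1.51 without the CC035 liver), with a log2 fold change of -1.46 (SE 0.12, q = 1.29e-21), and was higher in lung in 40 strains and in liver in 7.

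In TMM-scaled CPM, 14 of the 26 tested members did not overlap between liver and lung, against 25.8% of all genes. Of the 26, 10 had a median of 3 counts or fewer in the lower tissue, and the size of their fold change depends on the prior count of the fit. Scaling by total counts without TMM moved the median log2 fold change of all genes to -1.44 between liver and lung, -0.95 between liver and kidney and 0.46 between lung and kidney, and under it 23 members were higher in liver and 2 in lung, with *Ugt1a7c* not called (0.50).

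Between liver and kidney, 16 of 26 tested members were higher in liver and 10 in kidney (background 15.6% and 20.8%, either direction 36.4%). Higher in kidney were *Ugt3a1*, *Ugt3a2*, *Ugt8a*, *Ugt2b37*, *Ugt2b38*, *Ugt1a7c*, *Ugt1a10*, *Sult1c2*, *Sult1d1* and *Sult2b1*. *Ugt2b1* spanned 0 to 8.45 TPM in kidney (median 0.76) and did not overlap with liver (log2 fold change 11.10, SE 0.15, q = 4.33e-85). *Ugt2b36* (11.09, SE 0.15, q = 6.76e-85), *Ugt2b35* (10.33, SE 0.16, q = 1.04e-80) and *Sult2a8*, a bile acid sulfotransferase of mouse liver (7.43, SE 0.11, q = 4.66e-83), were also higher in liver in 47 of 47 strains.

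Of the members higher in kidney, *Ugt8a* differed most. Its kidney levels of 46 to 283 TPM (median 124) lay above all liver levels (0 to 2.17 TPM), with a log2 fold change of -8.03 for liver minus kidney (SE 0.12, q = 8.23e-80). *Ugt2b37* had 0.39 to 35.1 TPM in liver (median 2.58) and *Ugt2b38* 0.49 to 65.3 TPM (median 7.15), so that both overlapped with their kidney levels given above. Their log2 fold changes were -5.61 (SE 0.21, q = 1.74e-46) and -5.40 (SE 0.16, q = 8.32e-54), and kidney was the higher tissue in 43 and 44 of 47 strains. *Sult1c2* spanned 18.8 to 475 TPM in kidney (median 188) and 0.19 to 30.2 TPM in liver (median 8.07), with a log2 fold change of -3.80 (SE 0.08, q = 7.31e-66) and a higher kidney value in 47 of 47 strains. Over all tested members, 11 did not overlap between these tissues in TMM-scaled CPM, against 13.2% of all genes.

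Between lung and kidney, 18 of 26 tested members were called, 3 higher in lung and 15 in kidney (background 25.5% and 20.6%, either direction 46.1%). *Ugt3a2* spanned 0.27 to 14.3 TPM in lung (median 1.5) and did not overlap with kidney (-9.98 for lung minus kidney, SE 0.17, q = 2.65e-75). *Ugt3a1* spanned 0 to 3.27 TPM in lung and did not overlap either (-9.65, SE 0.18, q = 5.01e-73). *Ugt2b38* (-9.98, SE 0.24, q = 8.79e-63) and *Ugt2b37* (-9.46, SE 0.30, q = 1.25e-51) differed by as much, but their ranges overlapped, since some kidney libraries had low values of them.

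The members higher in lung than in kidney were all sulfotransferases. *Sult5a1* spanned 0 to 4.64 TPM in kidney (median 1.93) and was higher in lung in 47 of 47 strains (2.71, SE 0.19, q = 8.06e-26). *Sult1a1* spanned 12.9 to 66.9 TPM in kidney (median 29.8) and was higher in lung in 46 of 47 strains (1.20, SE 0.08, q = 3.78e-26). *Sult2b1* lay at the threshold (1.0, SE 0.21, q = 8.08e-06), was higher in lung in 32 strains and in kidney in 15, and was no longer called with only the 2 tissues in the fit (0.96) or without the filter (0.93). The 8 members not called were *Sult2a8*, *Ugt1a1*, *Ugt1a5*, *Ugt1a6a*, *Ugt1a6b*, *Ugt2b1*, *Ugt2b35* and *Ugt2b36*. *Ugt1a6a* differed by -0.05 (SE 0.07, q = 0.534). Of the 26, 7 did not overlap in TMM-scaled CPM, against 22.4% of all genes.

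**Figure D2:**
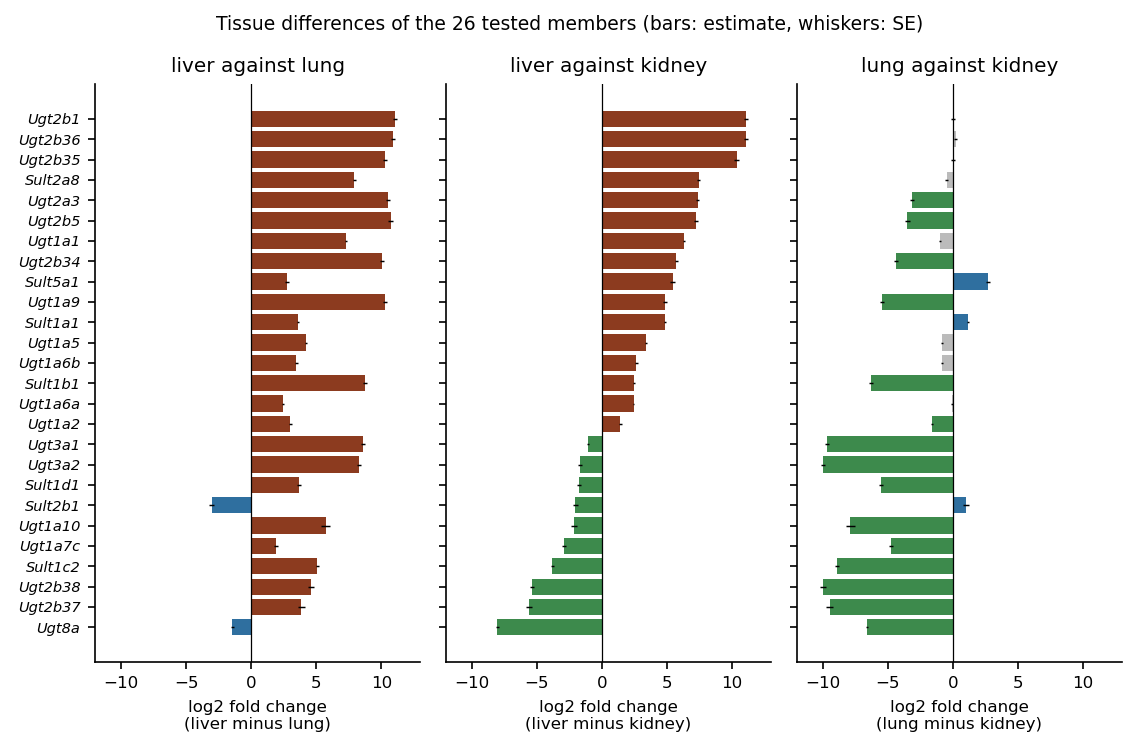
Log2 fold change of the 26 tested members in each tissue pair, from limma-voom with strain as a block. Positive values are higher in the first tissue; *Ugt2b1* reaches 11.06 and 11.10 toward liver, and *Ugt8a* lies at -8.03 for liver minus kidney.

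Genes that supply the donors and move the products were described from lists set for this report. Of 9 tested genes for UDP-glucuronic acid supply, 6 were higher in liver and 3 in lung, and between liver and kidney 3 were higher in liver, 1 in kidney and 5 were not called. *Ugp2*, which makes UDP-glucose, had medians of 30.7 TPM in liver and 5.91 TPM in lung (log2 fold change 3.73, SE 0.09, q = 1.23e-60), and *Pgm2*, a phosphoglucomutase, 182 and 45.9 TPM (3.51, SE 0.05, q = 3.18e-87). On total counts these counts were 4 and 3 between liver and lung, and 0 and 4 between liver and kidney, so the balance of this list depends on the scaling. *Ugdh*, which oxidizes UDP-glucose to the donor, was not called between liver and kidney (0.86), with medians of 120 TPM and 131 TPM, and its sign turned on total counts.

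Of 10 tested genes of PAPS supply and sulfate uptake, 6 were higher in kidney and 0 in lung between those tissues (6 and 1 on total counts), and 4 were not called. *Slc13a1*, the sodium sulfate cotransporter of the renal tubule, had a median of 355 TPM in kidney and 0.43 TPM in lung (-10.00 for lung minus kidney, SE 0.13, q = 9.74e-87). Between liver and lung, 6 of the 10 were higher in liver and 3 in lung, with *Slc26a1*, a sulfate anion transporter, at 5.91 (SE 0.12, q = 1.30e-70). On total counts that split was 3 and 4. Of 10 tested transporters of conjugates, 8 were higher in liver than in lung and 1 in lung (6 and 1 on total counts). Between liver and kidney, 5 were higher in liver and 3 in kidney, against 3 and 4 on total counts. *Slco1b2*, an uptake carrier of hepatocytes, had medians of 1286 TPM in liver and 1.52 TPM in lung (11.17, SE 0.14, q = 9.87e-90). *Slc22a6*, the organic anion transporter of the proximal tubule, had medians of 727 TPM in kidney and 0.67 TPM in liver (-8.99, SE 0.13, q = 5.42e-82).

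Of 6 tested genes of deconjugation, 2 were higher in liver than in lung and 0 in lung (1 and 1 on total counts), and the most changed between liver and kidney was *Arsb*, a lysosomal sulfatase (-2.57, SE 0.09, q = 2.77e-49). The sign of *Arsa*, another sulfatase, turned on total counts between liver and lung (1.13 with TMM). Of 11 tested regulators, 5 were higher in liver than in lung and 0 in lung, against 4 and 5 on total counts. *Hnf4a*, a nuclear receptor of hepatocytes and the renal tubule, had medians of 5.40 TPM in liver, 10.2 TPM in kidney and 0 in lung (liver minus lung 7.97, SE 0.12, q = 6.57e-82).

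The median spread of members over strains was wider than that of all genes. The spread was measured as the ratio of the 90th to the 10th percentile of TMM-scaled CPM, for members with a median of at least 10 counts. Its median was 2.91 for 24 members in liver, 2.74 for 11 in lung and 3.94 for 20 in kidney, beside 1.89, 1.80 and 1.79 for all genes. Above the 90th percentile of all genes lay 9 of the 24, 3 of the 11 and 12 of the 20 members. In kidney, the ratio was 249 for *Ugt2b38*, 176 for *Ugt2b37*, 66.1 for *Ugt1a10* and 43.5 for *Ugt1a9*. In liver, it was 27.7 for *Ugt2b38*, 12.5 for *Ugt3a2*, 8.75 for *Sult5a1* and 6.70 for *Ugt1a7c*, and in lung 10.5 for *Ugt3a2*, 7.64 for *Sult1d1*, 6.09 for *Ugt1a6b* and 3.79 for *Ugt8a*. The lung medians of *Ugt3a2* and *Ugt8a* were only 10 and 24 counts, so their spread includes counting error. Its standard deviation was estimated at 0.55 and 0.41 in log2 units, beside 1.21 and 1.24 over the strains. The most constant liver member was *Ugt2b36*, with a ratio of 1.48.

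*Ugt2b38* and *Ugt2b37* lie in the *Ugt2* cluster, at chr5:87838967-87853228 and chr5:87669518-87683829 of NCBIM37, both on the minus strand. Promoter sequences (250 bases before to 50 bases after the start, RefSeq, GRCm38.p6) were matched for 36 members. Those of the pair are shown because the 2 genes were low in different strains. In this reference genome, the 2 promoters were 94.8% identical over 286 aligned bases, and the sequences of the strains were not compared. Capitals mark bases that differ between the 2. *Ugt2b37* is at chr5:87254739-87255038 and *Ugt2b38* at chr5:87424154-87424453 of GRCm38.p6, both given 5′ to 3′ on the minus strand.
Ugt2b37: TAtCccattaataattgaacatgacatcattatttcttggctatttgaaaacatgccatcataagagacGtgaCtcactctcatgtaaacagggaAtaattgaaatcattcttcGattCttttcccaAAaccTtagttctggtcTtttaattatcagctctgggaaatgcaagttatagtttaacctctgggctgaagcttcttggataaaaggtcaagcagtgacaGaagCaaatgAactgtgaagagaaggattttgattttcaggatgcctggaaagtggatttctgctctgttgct
Ugt2b38: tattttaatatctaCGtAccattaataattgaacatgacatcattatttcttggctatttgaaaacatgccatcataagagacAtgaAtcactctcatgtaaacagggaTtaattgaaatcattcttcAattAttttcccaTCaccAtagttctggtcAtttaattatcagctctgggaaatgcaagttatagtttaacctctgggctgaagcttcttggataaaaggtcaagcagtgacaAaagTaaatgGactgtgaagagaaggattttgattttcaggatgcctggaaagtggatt

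In kidney, *Ugt2b38* lay between 0.50 and 15.7 TPM in 8 strains (CC004, CC007, CC019, CC028, CC038, CC040, CC043 and CC055) and between 325 and 3467 TPM in the other 39, with no strain in the gap. *Ugt2b37* was not low in those 8 strains, where it ranged from 325 to 1134 TPM (median 740), whereas in the 39 it ranged from 3.27 to 1423 TPM (median 342). Its own low values, of 13.9 TPM or less, fell in 10 other strains (CC002, CC006, CC024, CC025, CC029, CC042, CC057, CC059, CC061 and CC062). No kidney was thus low in both. In liver, the 8 strains had 0.49 to 3.77 TPM of *Ugt2b38* and the 39 had 0.65 to 65.3 TPM.

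*Ugt2b5*, of the same cluster, followed *Ugt2b37* in kidney at a far lower level (0 to 54.1 TPM, median 9.37). In the 12 strains with *Ugt2b37* at 34.1 TPM or less, *Ugt2b5* ranged from 0 to 2.91 TPM (median 1.02), and in the other 35 from 2.38 to 54.1 TPM (median 14.8). Of the windows of *Ugt2b5*, 58.9% are unique, and whether reads of 1 gene were counted for the other was not tested.

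**Figure D3:**
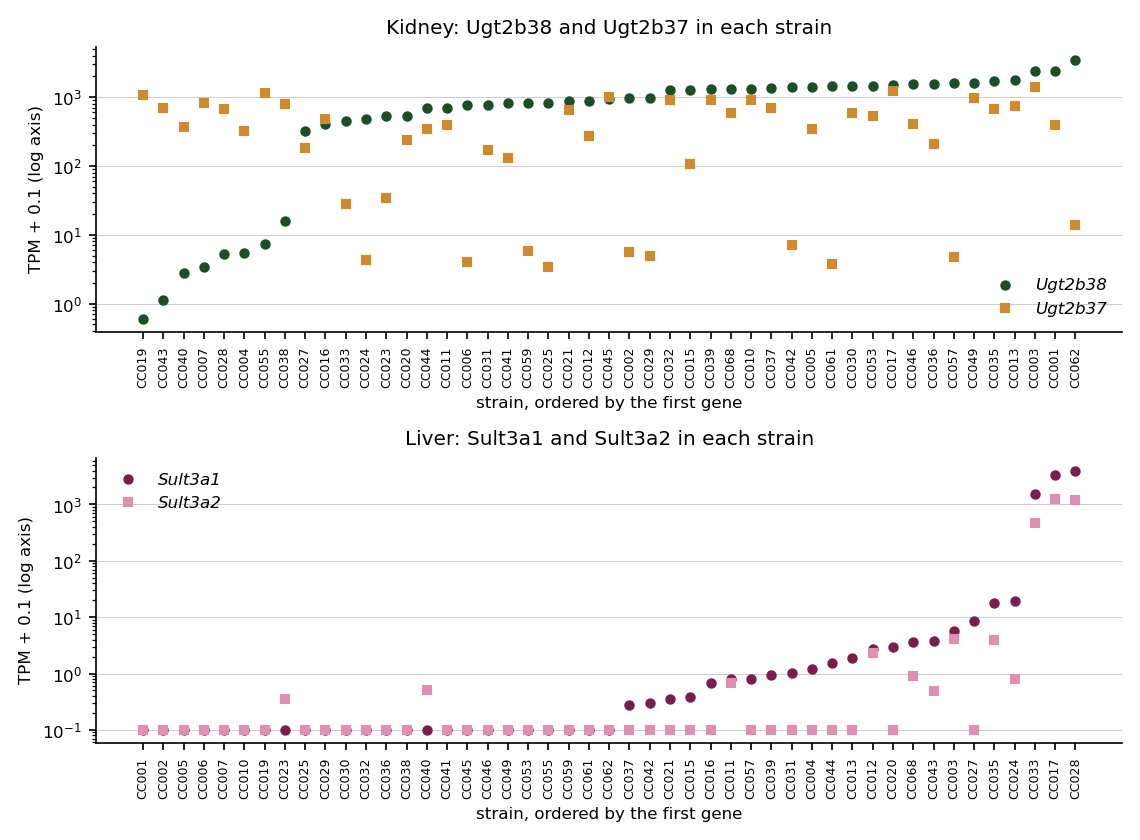
Level of *Ugt2b38* and *Ugt2b37* in each kidney library, and of *Sult3a1* and *Sult3a2* in each liver library, in TPM + 0.1 on log axes with strains ordered by the first gene. In kidney, 8 strains have at most 15.7 TPM of *Ugt2b38*, and in liver 3 strains have at least 1559 TPM of *Sult3a1*.

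Some members without a test between tissues were high in a few livers. *Sult3a1*, an amine sulfotransferase that is known as female-predominant in mouse liver, had 3332 TPM in CC017, 3931 TPM in CC028 and 1559 TPM in CC033, and at most 19 TPM in the other 44 strains. *Sult3a2*, the neighbouring gene on chromosome 10, had 1232, 1199 and 474 TPM in the same 3 strains and at most 4.04 TPM in the others. Of the windows of their transcripts, 93.5% and 91.8% are unique. In TMM-scaled CPM, *Sult3a1* had 2500, 2591 and 2934 in the 3 strains. Sex-biased liver genes were read in the same strains. *Cyp2b9*, a female-biased cytochrome P450, had 0 in CC017, 0 in CC028 and 1.42 TPM in CC033, with a highest value of 303 TPM in a strain. *A1bg*, also female-biased, had 0.18, 0.17 and 0.49 TPM, with a highest value of 92.5 TPM. In TMM-scaled CPM, the CC033 liver was above the median in both, with 4.66 of *Cyp2b9* (median 0.218, highest 264) and 1.55 of *A1bg* (median 0.273, highest 78.3). On that scale CC017 and CC028 were below both medians, with 0 of *Cyp2b9* and 0.229 and 0.190 of *A1bg*. Male-biased genes were partly low. Counted from the lowest of the 47 strains in TMM-scaled CPM, the fatty acid elongase *Elovl3* ranked 7 in CC017, 41 in CC028 and 5 in CC033, and the steroid dehydrogenase *Hsd3b5* ranked 8, 34 and 19. The organic anion carrier *Slco1a1* ranked 3, 13 and 29, and the cytochromes P450 *Cyp2d9* and *Cyp4a12a* ranked 42, 20 and 9 and 41, 24 and 13. In TPM, these 5 genes held ranks 1 to 5 in the CC033 liver, the library of the highest *Rn45s* and *Lars2* share. The part of a sex-biased state in the *Sult3a* levels was not tested.

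*Sult2a1*, a hydroxysteroid and bile acid sulfotransferase that is also female-predominant in mouse liver, had 533 TPM in CC007 and 43.9 TPM in CC045, and at most 0.91 TPM in the other 45 strains. *Sult1e1*, the estrogen sulfotransferase, was highest in the same CC007 liver, at 320 TPM, followed by 50.4 TPM in CC046, with a median of 0.61 TPM. *Sult2a8* was highest in that liver too (18 TPM, median 8.79). *Cyp2b9* was listed at 0 in the CC007 liver and had 4.89 TPM in that of CC045 (rank 12 from the highest, median 0.23). *A1bg* had 0.14 TPM in CC007 and 2.97 TPM in CC045 (rank 2 from the highest, median 0.24). The part of a sex-biased state in the *Sult2a1* levels was not tested. *Sult5a1* was lacking in liver in 2 strains, with 0 in CC029 and 0.16 TPM in CC038, while the other 45 had 7.41 to 185 TPM.

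*Ugt3a2* fell into a lower and a higher group of liver libraries. It lay between 16.8 and 51.5 TPM in 16 strains and between 110.4 and 538 TPM in the other 31. In kidney, these 16 strains had 203 to 818 TPM (median 501) and the 31 had 605 to 2187 TPM (median 1591), so that the same strains were lower in both organs although the kidney ranges overlapped. *Ugt3a1*, its neighbour on chromosome 15, had liver medians of 81.5 TPM in the 16 strains and 90.7 TPM in the 31.

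The *Ugt1a* genes lie at 1 locus of chromosome 1, and in kidney *Ugt1a10*, *Ugt1a9* and *Ugt1a7c* differed between the same strains. *Ugt1a10* was at 0.84 TPM or less in 6 kidneys (CC021, CC024, CC031, CC042, CC045 and CC061) and between 3.02 and 103 TPM in the other 41. *Ugt1a9*, an enzyme of bulky phenols, ranged from 0 to 0.42 TPM in the 6 strains and from 0.61 to 33.4 TPM in the 41. *Ugt1a7c* went the other way, with 106 to 281 TPM (median 222) in the 6 and 17.4 to 207 TPM (median 88.4) in the 41. In liver, *Ugt1a10* had 20.2 to 86.9 TPM in CC030, CC019, CC055 and CC015 and at most 5.30 TPM in the other strains. Strain CC015 had the lowest value of *Ugt1a6a* in lung (0.28 TPM, next 5.39) and in kidney (0.56 TPM). The CC015 lung had the highest *Rn45s* and *Lars2* share of the lungs (81.7%). Over the lungs, the highest *Ugt1a6a* value was 99.3 times the lowest in TPM and 23.4 times in TMM-scaled CPM, with CC015 lowest in both.

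**Figure D4:**
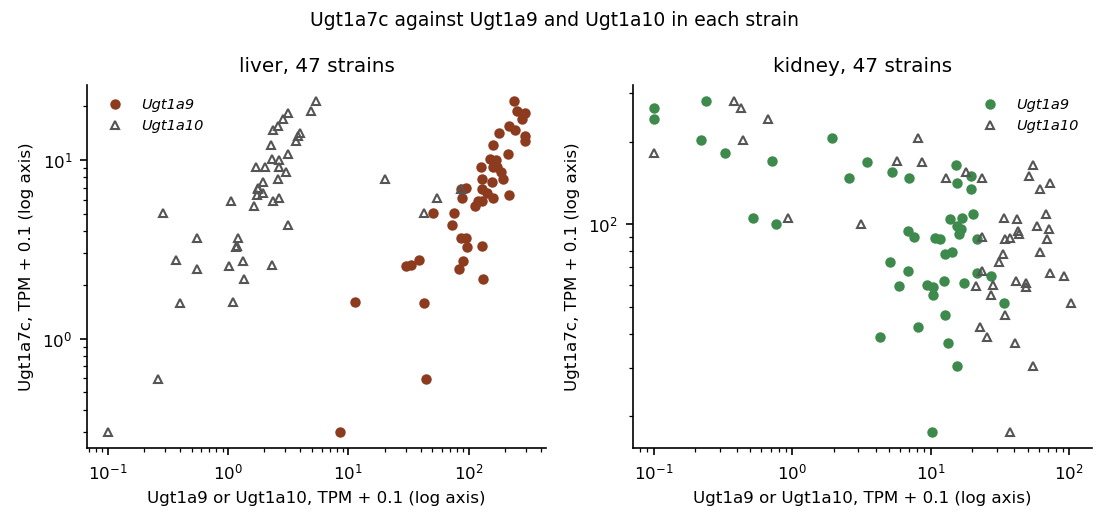
Level of *Ugt1a7c* against *Ugt1a9* and *Ugt1a10* in the 47 liver and 47 kidney libraries, in TPM + 0.1 on log axes. In kidney, libraries with low *Ugt1a9* and *Ugt1a10* have high *Ugt1a7c* (r = -0.77 and -0.74), and in liver *Ugt1a7c* rises with *Ugt1a9* (r = 0.85).

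Whether strains kept their order between tissues was tested with Pearson's r of rank inverse normal values of TMM-normalized TPM over the 47 strains, 10000000 permutations and adjustment over all 25981 relations of genes and tissue pairs (q at most 0.05). There were 39 relations of members. Between liver and kidney, 6 of 19 members correlated positively and 1 negatively, against 15.4% and 0.157% of all genes. Between liver and lung the count was 2 of 10, all positive (10.2% and 0.181%), and between lung and kidney 2 of 10, all positive (12.4% and 0.255%). The median r of members was 0.18, 0.19 and 0.12, beside 0.19, 0.14 and 0.15 for all genes, so members as a group did not stand far from other genes. Without the 7 strains CC006, CC010, CC016, CC033, CC035, CC049 and CC068, 7 members were called between liver and kidney, 1 between liver and lung and 2 between lung and kidney. The sequencing batches of the study are not in the labels, and their part in any correlation over strains was not tested.

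Between liver and kidney, *Sult1c2* had r = 0.60 (permutation p = 9.1e-06, q = 0.000451) and rho = 0.51 (permutation p = 0.000274, q = 0.00592), and r was 0.54 without the 2 strains farthest from the median. *Ugt1a9* had r = 0.57, *Ugt1a6a* 0.57 and *Sult1d1* 0.49, each called. *Ugt3a2* and *Ugt2b38* were called too, but their strains form groups, so r is given within them. For *Ugt3a2*, r between liver and kidney was -0.04 in the 16 strains with the lower liver level and 0.08 in the 31 with the higher, and for *Ugt2b38* it was 0.13 in the 8 strains of low kidney level and 0.38 in the other 39. The lowest correlation was that of *Ugt1a7c* (r = -0.42, permutation p = 0.00333, q = 0.0321), with rho = -0.35 (permutation p = 0.0147, q = 0.0925) and r = -0.45 without 2 strains. Strains with more *Ugt1a7c* in kidney thus tended to have less in liver, though rho did not pass.

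Between lung and kidney, *Sult1a1* had r = 0.64 (permutation p = 9e-07, q = 7.77e-05) and rho = 0.65 (permutation p = 1.2e-06, q = 9.20e-05), with r = 0.60 without 2 strains. *Ugt1a6b* had r = 0.54 (permutation p = 9.08e-05, q = 0.00256) and rho = 0.60 (permutation p = 1.01e-05, q = 0.000498), with r = 0.63 without 2 strains. *Ugt1a6a* followed with r = 0.20 (q = 0.402), and *Ugt8a* had the lowest value (r = -0.26, q = 0.235), neither called. Between liver and lung, *Sult1a1* had r = 0.43 (permutation p = 0.00247, q = 0.026) and rho = 0.41 (permutation p = 0.0045, q = 0.042). *Ugt1a6a* had r = 0.42 (permutation p = 0.00309, q = 0.0303) and rho = 0.42 (permutation p = 0.00329, q = 0.0337). Without 2 strains r was 0.39 and 0.32 and neither passed. *Ugt1a1* (r = 0.25, q = 0.266) and *Ugt1a7c* (r = -0.13, q = 0.626) were not called. *Sult1a1* was the 1 member called in both pairs that include lung.

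Within each tissue, pairs of members were compared over the strains by the same measure, adjusted over all pairs of a member and any gene (211620 in liver, 127853 in lung and 201510 in kidney). In liver, 11 of 276 member pairs were called, all positive, against 0.027% (positive) and 0.00568% (negative) of pairs of a member with another gene. Liver pairs were *Ugt1a7c* with *Ugt1a9* (r = 0.85), *Ugt1a6a* with *Ugt1a6b* (r = 0.78), *Ugt2b36* with *Ugt2b5* (r = 0.76) and *Ugt1a2* with *Ugt1a7c* (r = 0.70), each at a permutation p of 1e-07, the smallest they can give, and q = 0.00163. Their rho was 0.84, 0.80, 0.73 and 0.71, and r without 2 strains was 0.81, 0.80, 0.71 and 0.67. Without the 7 strains named above, 5 liver pairs were called. All 11 pairs joined genes of the same cluster, either within *Ugt1a* or within *Ugt2*. Such genes can share sequence. Of their windows, 7.81% are unique in *Ugt1a6b*, 13.4% in *Ugt1a6a*, 28.2% in *Ugt1a7c*, 58.9% in *Ugt2b5* and 99.7% in *Ugt2b36*. The part of shared reads in these correlations was not tested. The lowest pairs were *Sult1a1* with *Ugt2b35* (r = -0.31, q = 0.519) and *Sult1c2* with *Ugt1a6b* (r = -0.30, q = 0.528).

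In kidney, 3 of 190 pairs were called as positive and 2 as negative (background 0.0517% and 0.00944%). *Ugt1a10* and *Ugt1a9* had r = 0.90 (rho 0.89), *Ugt2b37* and *Ugt2b5* 0.84 (rho 0.88) and *Ugt1a6a* and *Ugt1a6b* 0.76 (rho 0.81), each at a permutation p of 1e-07 and q = 0.00202. *Ugt1a7c* was negative with *Ugt1a9* (r = -0.77, rho = -0.73, q = 0.00202) and with *Ugt1a10* (r = -0.74, rho = -0.69, q = 0.00202). The next pair, *Ugt1a1* with *Ugt1a5*, was not called (r = 0.55, q = 0.0693). Within the 41 strains with the higher *Ugt1a10* level, r was 0.87 for *Ugt1a10* with *Ugt1a9*, -0.66 for *Ugt1a7c* with *Ugt1a9* and -0.61 for *Ugt1a7c* with *Ugt1a10*. Within the 35 strains with the higher *Ugt2b37* level, r with *Ugt2b5* was 0.72. The part of shared reads in the kidney pairs was not tested either.

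In lung, 0 of 55 pairs were called by these permutations (background 0.175% and 0.018%), while 6 had an unadjusted p under 0.05. The highest were *Ugt1a1* with *Ugt1a7c* (r = 0.45, permutation p = 0.0017, q = 0.195) and *Sult1d1* with *Ugt8a* (r = 0.44, permutation p = 0.0019, q = 0.204), and the lowest *Sult1a1* with *Ugt1a5* (r = -0.26, q = 0.635). A pair of *Ugt1a* genes that was positive in liver could thus be negative in kidney, as for *Ugt1a7c* and *Ugt1a9*, and the difference between the tissues was not tested.

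**Figure D5:**
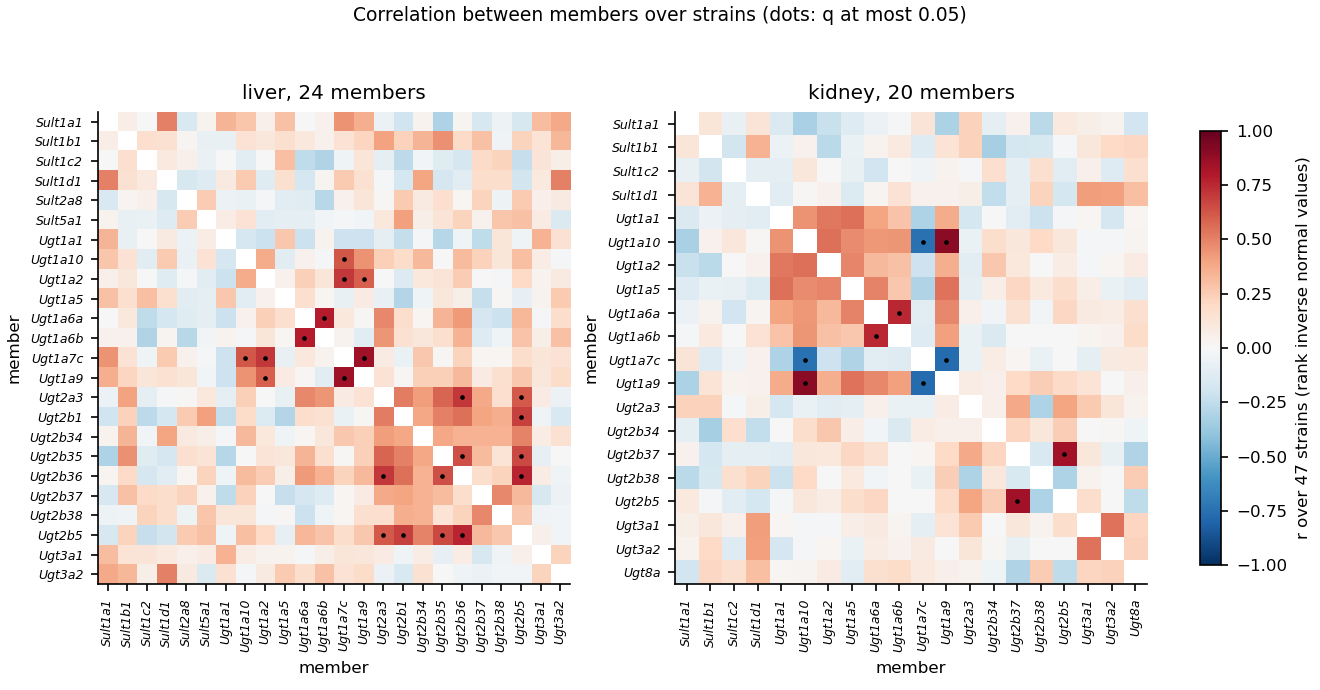
Pearson's r between members over 47 strains in liver and kidney, for members with a median of at least 10 counts. Red is positive and blue negative; *Ugt1a7c* with *Ugt1a9* is 0.85 in liver and -0.77 in kidney.

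In liver, members were also set against 15 response markers of nuclear receptors and of sex-biased expression. Of 360 pairs, 1 was called, *Ugt2b1* with *Cyp2b9* (r = -0.60, permutation p = 7.9e-06, q = 0.0304, rho = -0.55, q = 0.0953). *Cyp2b9* was listed at 0 in 19 strains, and over the 28 strains above 0 r was -0.59. Without the 7 strains, this pair was no longer called. The next pairs were *Ugt2b1* with *Hsd3b5* (r = 0.55, q = 0.0742), *Cyp4a12a* (r = 0.53, q = 0.106) and *Slco1a1* (r = 0.47, q = 0.175), and *Ugt2b5* with *Slco1a1* (r = 0.53, q = 0.111) and *Hsd3b5* (r = 0.48, q = 0.164), all male-biased genes and none called. The liver of CC016, where *Ugt2b1* was lowest (104 TPM), also had the highest summed CPM of 3 macrophage genes (319, median 29), and whether these bear on each other was not tested.

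In lung, several low members moved with genes of other organs. The CC010 lung had 50.7 TPM of *Ugt2b1*, 42.9 TPM of *Ugt2b5* and 33.8 TPM of *Ugt2b36*, while the other 46 lungs had at most 4.81, 4.67 and 6.55 TPM. The same library had 1170 TPM of *Alb*, against at most 332 TPM in the others. Without CC010 and without the 7 strains, settings chosen after seeing the data, 26, 26 and 18 members were called in the 3 tissue pairs, as with them. *Ugt3a2* in lung correlated with *Slc34a1* (r = 0.77, q = 0.000639) and *Kap* (r = 0.75, q = 0.000639), markers of the proximal tubule that were picked after their values were seen. The part of such RNA in the lung values was not tested.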

How the data were processed

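Single-end reads of 50 bases were aligned by the authors with STAR 2.5.3a to a pseudo-genome of each strain built on Build37, and RSEM gave gene values. The deposited expected count and deposited TPM of every gene were used, and the deposited FPKM was not. Of the expected counts, 25 were not whole, and they were rounded. Per the study's methods, libraries were sequenced in batches, which were a covariate of its models. The labels do not assign them to samples, so no fit here was adjusted for batch.

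Counts were scaled by TMM (edgeR 4.0.16). Genes with over 1 CPM in at least 30% of libraries were compared with limma-voom 3.58.1 in R 4.3.3, with tissue and strain, since the 3 libraries of a strain came from 1 mouse. These libraries deviated together from their tissue means, with a median r across genes of 0.18 (liver and lung), 0.21 (liver and kidney) and 0.21 (lung and kidney), and below 0 for different strains. Adjusted p-values of tissue comparisons are from limma with Benjamini-Hochberg adjustment. Correlations used Blom scores (offset 0.375). The plan set 100000 permutations and adjusted over members alone. Because that floor was too coarse for adjustment over all genes, 10000000 permutations were used. DESeq2 1.42.0 and edgeR's quasi-likelihood test were alternatives. Both steps were tested on simulated data.

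Named were the members of highest level, fold change, spread and correlation by fixed numbers of each. Members, lists and this rule were chosen with earlier results of these data known. Strains set apart by their values were singled out after these were seen. Other steps used pandas 2.3.3, scipy 1.17.1 and numpy 2.4.6 under Python 3.11.15. Values of 2 further listed genes are left out here.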

Additional observations from a re-analysis of the deposited data

How the results depend on the processing

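For 21 named fold changes and 11 alternatives of each, 229 of 231 values kept their direction and their side of the threshold. These 21 were the largest of each tissue pair and direction, so that most lay far from the threshold. The other 2 were those of *Sult2b1* between lung and kidney, 0.93 without the filter on low counts and 0.96 with only the 2 tissues compared. Among all 26 tested members, more calls changed. Lost between liver and lung were *Ugt1a7c* (0.50 on total counts), *Ugt1a6a* (0.85 on log2(TPM + 1)) and *Sult5a1* (0.93 on log2(TPM + 0.1)). *Ugt1a2* was lost between liver and kidney (0.46 on total counts) and between lung and kidney (-0.68 on log2(TPM + 1)). *Ugt1a1* was gained between lung and kidney (-1.03 without the filter). The counts of members called between tissues stayed within 1.5 times under each alternative. Without strain as the replicate block, 26, 26 and 18 members were called, as with it. The counts of correlations depended more on the processing, and the cause was not tested. On TPM without TMM, the count was 0 for liver with lung and 0 for lung with kidney (2 and 2 with TMM), and for pairs it was 126 in liver, 32 in lung, 64 in kidney and 98 with response markers (11, 0, 5 and 1 with TMM). For liver with lung it was 1 after regression on library size and 0 when the 2 strains farthest from the median were left out. For response markers it was 2 on TMM-scaled CPM, 2 after regression on library size, and 0 with Spearman's rho, without 2 strains and on log2(value + 1). On log2(value + 1), 9 kidney pairs were called, and with a median above 3 counts 9 of 171 lung pairs. Without CC006, CC010, CC016, CC033, CC035, CC049 and CC068, the count was 1 for liver with lung, 5 for liver pairs and 0 for response markers, in 40 strains. Results without CC010, without these 7 strains and with 100000 permutations were added after seeing the data. With 1 mouse per strain and tissue, the spread within a strain is unknown.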
